A study of Homo sapiens with 24 samples.

Results

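The genes described are 10 members of the growth factor receptor system of epithelial cells, 6 receptor tyrosine kinases and 4 ligands of one of them. The receptors are EGFR, ERBB2, ERBB3, MET, IGF1R and INSR, and the ligands are AREG, EREG, TGFA and HBEGF. They were taken from the count tables by Ensembl gene identifier, with no cutoff on their levels (ENSG00000146648 EGFR, ENSG00000141736 ERBB2, ENSG00000065361 ERBB3, ENSG00000105976 MET, ENSG00000140443 IGF1R, ENSG00000171105 INSR, ENSG00000109321 AREG, ENSG00000124882 EREG, ENSG00000163235 TGFA and ENSG00000113070 HBEGF), and are 10 of the 20426 genes listed in all 24 tables. The choice was made with earlier results of these data known. All 10 were among the 11938 genes that passed the filter on low counts and were tested.

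The series compared ribosome footprints (RPF, the stretches of mRNA that ribosomes shield from nuclease) with input RNA (INPUT) in 6 cultured human populations, with 2 libraries of each kind per population. Wild-type 841CON, a normal colon epithelial line, was set against the wild-type colon cancer lines HCT116, HCT15 and SW620. The other populations are HCT15-PLVX, called the vector line here and labelled wild type, and HCT15-COPS7B, labelled with overexpression of COPS7B, a subunit of the COP9 signalosome, and called the COPS7B line. The labels give neither the promoter behind the COPS7B transgene nor whether the modified cells are 1 clone or a pool. All populations received cycloheximide, an inhibitor of elongating ribosomes, at 100 µg per mL for 10 minutes. The wild-type lines grew in different media, EMEM for 841CON, RPMI-1640 for HCT116, DMEM for HCT15 and L15 for SW620, so line and medium cannot be told apart. Whether both libraries of a group stem from different cultures is not stated. The p-values cover no more than the difference within such pairs, which can be technical. Differences within a pair came nearest to counting error in both HCT116 pairs and in the footprint pairs of COPS7B and 841CON. Their chi-square per gene was 1.40 to 1.70, against 4.12 to 63.9 in the other 8 pairs. In these 4 groups a small SD or a lack of overlap need not show replication between cultures. They are the pairs summed in an alternative run given below.

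EGFR, ERBB2 and ERBB3 belong to the ERBB family, whose members pair with each other on the cell surface when a ligand binds. ERBB2 has no known ligand and ERBB3 has little kinase activity of its own, so both signal mainly through their partners. AREG, EREG, TGFA and HBEGF are made as membrane-anchored precursors, are released by proteases and bind EGFR, whose signals pass through RAS and PI3K to growth and survival. In the colon, EGFR signalling supports renewal of the crypt epithelium, and AREG and EREG are known for their expression in colorectal tumours, where antibodies to EGFR are used in treatment. MET is the receptor of hepatocyte growth factor, and IGF1R and INSR are the related receptors of the insulin-like growth factors and of insulin.

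Library depth, over all genes listed for a library, ranged from 1237231 to 9105954 counts (median 2312693) for INPUT and from 84262 to 4679279 counts (median 1533741) for RPF. Fewest counts, 98043 and 84262, were in the RPF libraries of SW620, where a single count is worth 8.61 and 10.6 counts per 1000000 counts (CPM). Levels are given in CPM after scaling, and levels of different genes are not compared, because no transcript lengths were used. Over the 11938 tested genes, the INPUT libraries of the vector line correlated with those of parental HCT15 at a mean r of 0.889. The INPUT libraries of 841CON, the reference of the cancer lines, correlated with each other at 0.817, the lowest of the INPUT pairs. Those of parental HCT15 correlated with each other at 0.869. The COPS7B INPUT libraries, which carry an HCT15 label, correlated at 0.963 with each other. With the vector line they correlated at 0.602, with parental HCT15 at 0.581 and with HCT116 at 0.673. In RPF the order was another, at 0.680 with the vector line, 0.600 with parental HCT15 and 0.592 with HCT116. The RPF libraries of the vector line and parental HCT15 correlated at 0.828. The COPS7B libraries thus stand apart from the line they are labelled with, and a difference drawn from them is a difference of the libraries labelled COPS7B. COPS7B itself and markers of colon epithelium were not analysed here. In bulk RNA, fewer expressing cells and less RNA per cell cannot be told apart.

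In INPUT RNA, AREG and EREG were higher in the 3 cancer lines than in 841CON and lower in the COPS7B libraries than in the vector line, while IGF1R and INSR were higher in the COPS7B libraries. ERBB3, MET and TGFA shared the directions of AREG and EREG. The 250 bases before the RefSeq start are shown for AREG, EREG, IGF1R and INSR (build GRCh38.p14, written 5′ to 3′ on the gene's strand). The AREG window lies at chr4:74444886-74445135 (plus strand), EREG at chr4:74364895-74365144 (plus), IGF1R at chr15:98648289-98648538 (plus) and INSR at chr19:7294415-7294664 (minus). Capitals mark matches, on either strand, to the TATA box (TATAAA), the GC box (GGGCGG), the cyclic AMP response element (TGACGTCA), the AP-1 site (TGANTCA) and the CCAAT box (CCAAT).
AREG: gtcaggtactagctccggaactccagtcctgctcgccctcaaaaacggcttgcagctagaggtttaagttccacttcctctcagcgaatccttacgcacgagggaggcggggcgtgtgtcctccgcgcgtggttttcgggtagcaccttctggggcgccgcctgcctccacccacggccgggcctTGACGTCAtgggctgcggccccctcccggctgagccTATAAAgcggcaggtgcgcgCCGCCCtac
EREG: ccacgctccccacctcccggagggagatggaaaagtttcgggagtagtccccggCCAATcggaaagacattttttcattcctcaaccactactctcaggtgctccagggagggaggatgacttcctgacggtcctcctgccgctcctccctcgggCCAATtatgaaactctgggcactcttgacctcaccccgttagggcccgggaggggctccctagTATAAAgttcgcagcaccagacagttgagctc
IGF1R: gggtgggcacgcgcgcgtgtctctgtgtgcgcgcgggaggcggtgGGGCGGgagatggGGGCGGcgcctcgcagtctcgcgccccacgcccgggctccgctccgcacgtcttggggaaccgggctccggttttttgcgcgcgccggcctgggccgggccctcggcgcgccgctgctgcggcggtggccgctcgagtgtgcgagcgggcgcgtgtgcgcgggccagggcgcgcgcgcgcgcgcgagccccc
INSR: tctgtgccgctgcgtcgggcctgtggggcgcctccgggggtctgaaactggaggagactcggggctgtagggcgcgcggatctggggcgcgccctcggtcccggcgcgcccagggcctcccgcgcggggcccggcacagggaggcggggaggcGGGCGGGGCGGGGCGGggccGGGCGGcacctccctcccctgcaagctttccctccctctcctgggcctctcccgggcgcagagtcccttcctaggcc

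The AREG window holds a TATA box that begins 29 bases before the start, a GC box 9 bases and a cyclic AMP response element 65 bases before it. EREG has a TATA box 32 bases before the start and 2 CCAAT boxes, 196 and 95 bases before it. Neither IGF1R nor INSR has a TATA box in the window, while IGF1R has 2 GC boxes and INSR has 4, of which 3 overlap with a neighbour. Of the genes not shown that shared the directions of AREG and EREG, MET has 2 GC boxes and no TATA box. TGFA has 3 GC boxes in window 1, none in window 2 and no TATA box in either, and ERBB3 had no window. GC boxes without a TATA box thus occur in genes of either direction. Of 35116 promoter windows of the same length, 10.7% hold TATAAA, 42.6% GGGCGG, 1.65% TGACGTCA, 6.57% TGANTCA and 32% CCAAT. GC content was 65.2% in the AREG window, 58% in EREG, 81.2% in IGF1R and 78.4% in INSR. These matches describe the letters in the window, and no binding was measured. AREG and EREG are neighbours on chromosome 4, with 56386 bases between the end of EREG and the start of AREG.

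The comparison the series was designed for sets each cancer line against 841CON. In INPUT RNA, ERBB3, MET, AREG, EREG and TGFA were higher and IGF1R was lower in all 3 cancer lines. Beyond these, INSR was lower in HCT15, and EGFR and ERBB2 were lower in SW620. The genes that passed edgeR's quasi-likelihood test (Benjamini-Hochberg adjusted p under 0.05 over all tested genes) were thus 6 of 10 in HCT116, 7 in HCT15 and 8 in SW620, beside 40.1%, 35.4% and 44.4% of all 11938 genes. The median fitted log2 change of the 10 genes was 2.16 in HCT116, 2.85 in HCT15 and 3.41 in SW620, against -0.042, -0.023 and 0.026 over all tested genes. The comparisons share the 841CON libraries, so a direction common to them is not independent support. Without the 4 COPS7B libraries in the fit, 6, 6 and 7 members passed.

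**Figure D1:**
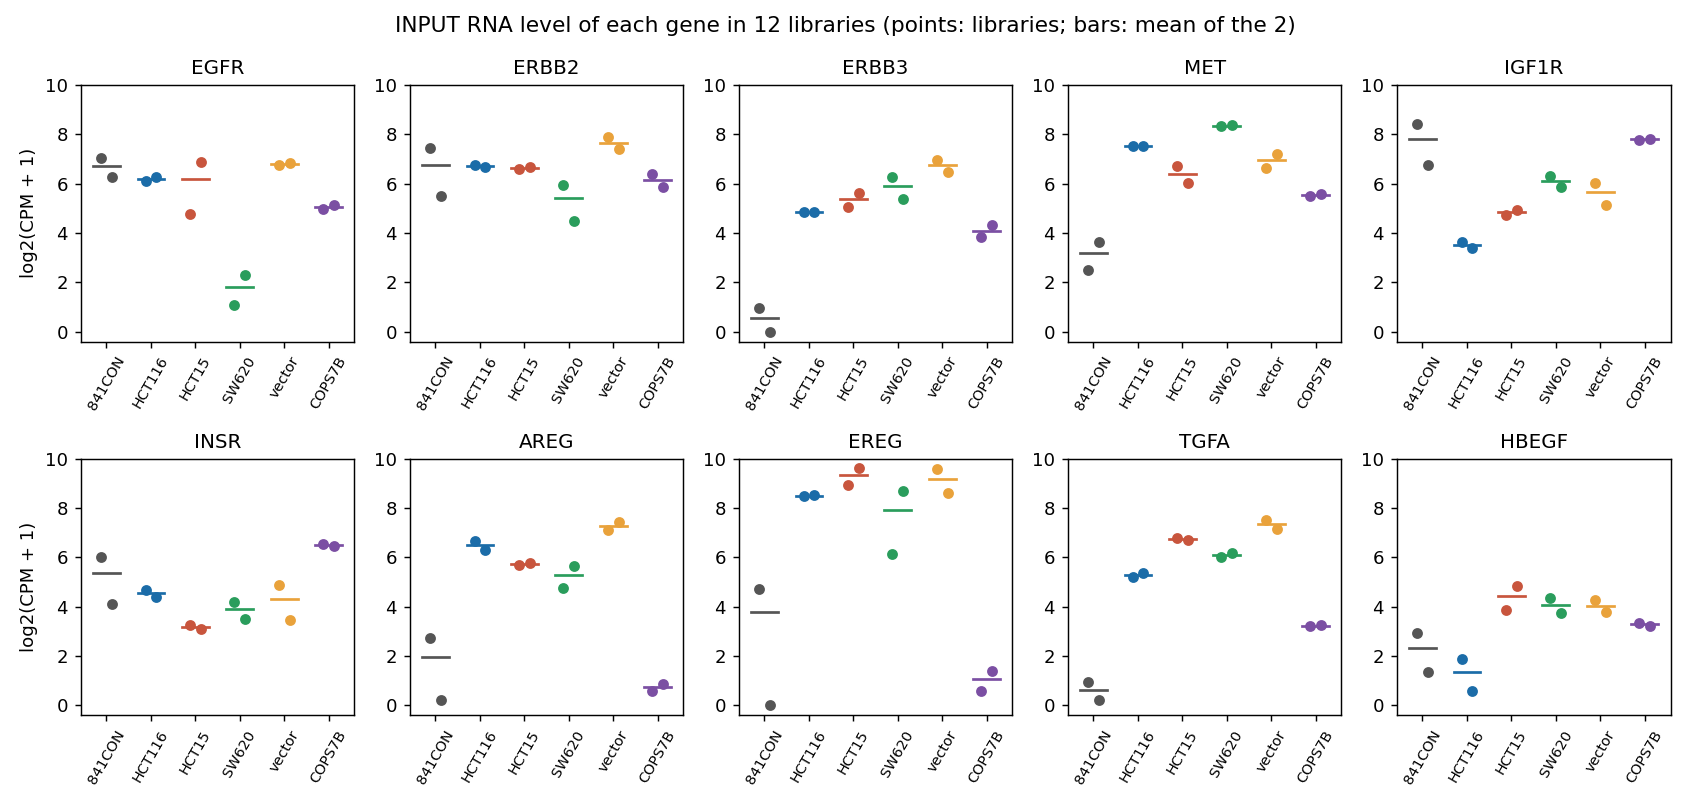
INPUT RNA level of each gene as log2(CPM + 1), by population, with 1 point per library and a bar at the mean of the 2. ERBB3 and TGFA lie lowest in the 841CON libraries, EGFR is lowest in SW620, and AREG and EREG are lowest in COPS7B and 841CON.

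Footprints, which count ribosomes on each mRNA, gave fewer calls in HCT116 and SW620 and 1 more in HCT15. In HCT116 AREG and EREG were higher and IGF1R lower, 3 of 10 genes, beside 59.3% of all tested genes. In HCT15 ERBB2, ERBB3, AREG, EREG, TGFA and HBEGF were higher and IGF1R and INSR lower, 8 of 10, beside 49.9%. In SW620 ERBB3, MET and AREG were higher and EGFR lower, 4 of 10, beside 37.8%. Translational efficiency (TE) was tested as the change of footprints relative to INPUT, where both lines had an INPUT count averaging 10 or more. MET was lower in TE in all 3 lines, and IGF1R was lower in HCT15. These are 1 of 6 tested members in HCT116, 2 of 6 in HCT15 and 1 of 5 in SW620, beside 45.6%, 16.7% and 18.1% of all genes tested for TE. The share of members called was below the share of all genes in HCT116 for footprints and TE and close to it in SW620, so these counts set the members apart from other genes in neither line.

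**Figure D2:**
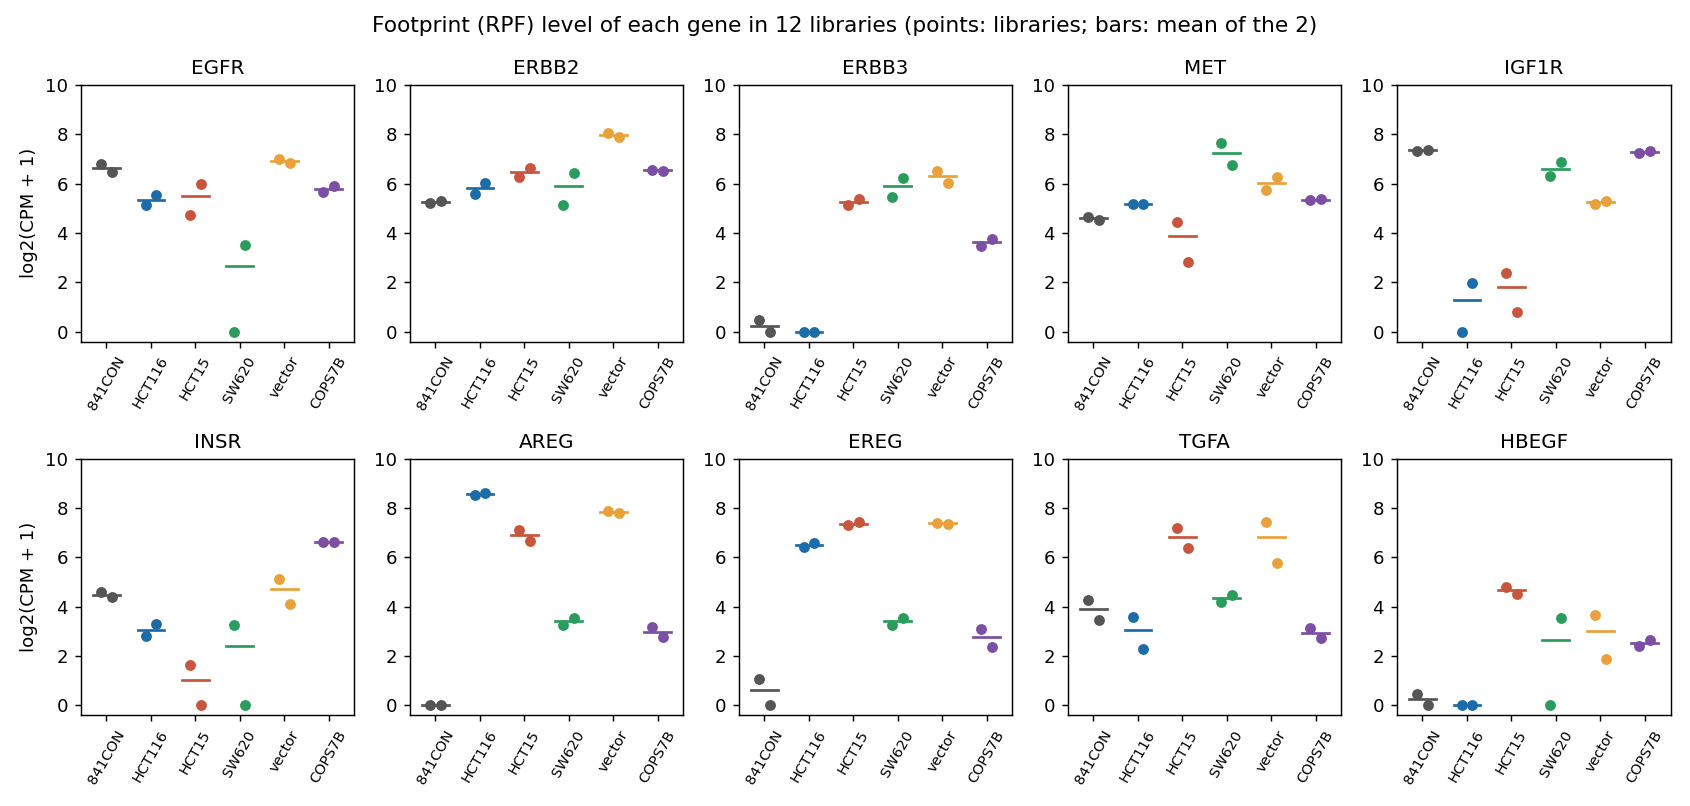
Footprint level of each gene as log2(CPM + 1), by population, with 1 point per library and a bar at the mean of the 2. AREG has no footprint count in either 841CON library, ERBB3 and HBEGF have none in HCT116, and the SW620 points rest on few counts.

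EGFR, the receptor that all 4 ligands bind, was measured in INPUT at 132 and 75.5 CPM in 841CON, 67.4 and 77.2 in HCT116, 26.5 and 115 in HCT15, and 1.10 and 3.89 in SW620. SW620 was set apart, with 1 and 6 INPUT counts, while the HCT116 and HCT15 ranges overlapped that of 841CON. The fitted change in SW620 was -5.19 on the log2 scale (SE 0.75, adjusted p = 2.592e-05), and the ratio of the pooled levels was 0.0338 (95% counting interval 0.0135 to 0.0702). In HCT116 and HCT15 the log2 changes were -0.51 (adjusted p = 0.4935) and -0.55 (adjusted p = 0.4693), and the latter passed without HCT15 INPUT replicate 2 (log2 -1.95, adjusted p = 0.01286). The cancer lines also differed from each other in EGFR INPUT, as did MET, IGF1R and HBEGF, 4 of 10 beside 46.0% of all genes (F test in edgeR, adjusted p = 0.000199 for EGFR).

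EGFR footprints were at 109 and 88 CPM in 841CON, 33.6 and 45.6 in HCT116, and 25.2 and 63.1 in HCT15, with 0 and 1 counts in SW620. The libraries of all 3 cancer lines lay below those of 841CON. The log2 changes of -1.31 in HCT116 (adjusted p = 0.05221) and -1.13 in HCT15 (adjusted p = 0.09234) did not pass in edgeR, and both passed with DESeq2 (adjusted p = 0.001584 and 0.00184). In edgeR the HCT116 change also passed with TMM over all 24 libraries (0.04896), with the replicate block (0.04827), with only the compared libraries (0.008867) and without the COPS7B libraries (0.03215). The HCT15 change also passed in edgeR without HCT15 RPF replicate 2 (0.02951). The SW620 call (log2 -4.35, adjusted p = 0.005873) rests on that single count and was lost without SW620 RPF replicate 1 (adjusted p = 0.09219).

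ERBB2, the ligandless partner, was measured in INPUT at 172 and 44.7 CPM in 841CON, 108 and 101 in HCT116, 95.8 and 102 in HCT15, and 61.3 and 21.4 in SW620. The 841CON libraries differed widely from each other and enclosed the values of HCT116 and HCT15, and they overlapped those of SW620. The log2 changes of -0.014 in HCT116 and -0.094 in HCT15 turned to 1.26 and 1.26 without 841CON INPUT replicate 1, and passed (adjusted p = 0.03853 and 0.04421). In SW620 the change was -1.39 (SE 0.52, adjusted p = 0.03676), and it was lost without 841CON INPUT replicate 1 (log2 -0.20, adjusted p = 0.7758) or SW620 INPUT replicate 2 (log2 -0.78, adjusted p = 0.3432). ERBB2 footprints were at 36.2 and 38.3 CPM in 841CON and 76.2 and 99 in HCT15, where the libraries did not overlap and the log2 change of 1.24 (SE 0.51, adjusted p = 0.04919) lay at the threshold. That call was lost when any 1 of the 4 libraries was left out (adjusted p from 0.05583 to 0.1838).

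ERBB3, which passes signals of its partners to PI3K, had 1 and 0 INPUT counts and 1 and 0 footprint counts in 841CON. Its INPUT level was 28 and 28.2 CPM in HCT116, 31.9 and 48.9 in HCT15, and 76.7 and 40.2 in SW620. Each cancer library was above both 841CON libraries, and the pooled ratios were 190.4 (95% counting interval 33.4 to 7595) in HCT116, 254 (45.1 to 10056) in HCT15 and 364 (64.3 to 14495) in SW620. The adjusted p-values were 1.873e-05, 1.445e-05 and 3.761e-06.

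ERBB3 footprints were found in HCT15 at 34.3 and 40.1 CPM and in SW620 with 5 and 7 counts, but not in either HCT116 library. The pooled ratio of footprint to INPUT level was 1.03 (0.854 to 1.24) in HCT15 and 1.06 (0.533 to 1.91) in SW620. HCT116 had 42 and 57 INPUT counts, so that the absence of footprints there allows a ratio of up to 0.0655, by counting error only. Fewer genes had footprints in HCT116 as a whole. Its RPF libraries held counts for 8350 and 8448 genes, against 9171 and 9074 in the shallower RPF libraries of SW620. What part of the absence is particular to ERBB3 was not tested. ERBB3 was among the 4 of 8 tested members that differed in TE among the 3 cancer lines, beside 52.7% of all genes tested (F test in edgeR, adjusted p = 0.0004784).

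MET, the receptor of hepatocyte growth factor, had more RNA in each cancer line but fewer footprints for that RNA. INPUT stood at 4.71 and 11.4 CPM in 841CON, 182 and 183 in HCT116, 105 and 63.3 in HCT15, and 318 and 330.3 in SW620. The cancer libraries were all above 841CON, with log2 changes of 4.34 (SE 0.52), 3.23 (SE 0.50) and 5.17 (SE 0.53) and adjusted p-values of 4.84e-06, 7.891e-05 and 8.326e-07. Footprints stood at 24 and 22.2 CPM in 841CON, 34.6 and 34.9 in HCT116, 21 and 6.11 in HCT15, and 198 and 106 in SW620. Only SW620 passed the footprint test (log2 2.73, SE 0.53, adjusted p = 0.000564), while the log2 differences were 0.59 in HCT116 (adjusted p = 0.3194) and -0.88 in HCT15 (adjusted p = 0.1476). The HCT15 difference passed without HCT15 RPF replicate 1 (log2 -1.91, adjusted p = 0.006027).

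For MET, the pooled ratio of footprint to INPUT level was 2.26 (95% counting interval 1.64 to 3.13) in 841CON, 0.191 (0.147 to 0.244) in HCT116, 0.109 (0.0814 to 0.144) in HCT15 and 0.481 (0.329 to 0.681) in SW620. The TE changes were -3.75 (SE 0.69, adjusted p = 0.0002717), -4.11 (SE 0.70, adjusted p = 0.0008977) and -2.44 (SE 0.70, adjusted p = 0.02155) on the log2 scale, where the median over all tested genes was -0.59, 0.30 and -0.28. The 841CON side rests on 5 and 65 INPUT counts, and MET could not be tested for TE in any of the 3 cancer lines without 841CON INPUT replicate 2. The SW620 call was lost when 841CON RPF replicate 1 (adjusted p = 0.06659), SW620 INPUT replicate 2 (0.05448) or SW620 RPF replicate 2 (0.09365) was left out.

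**Figure D3:**
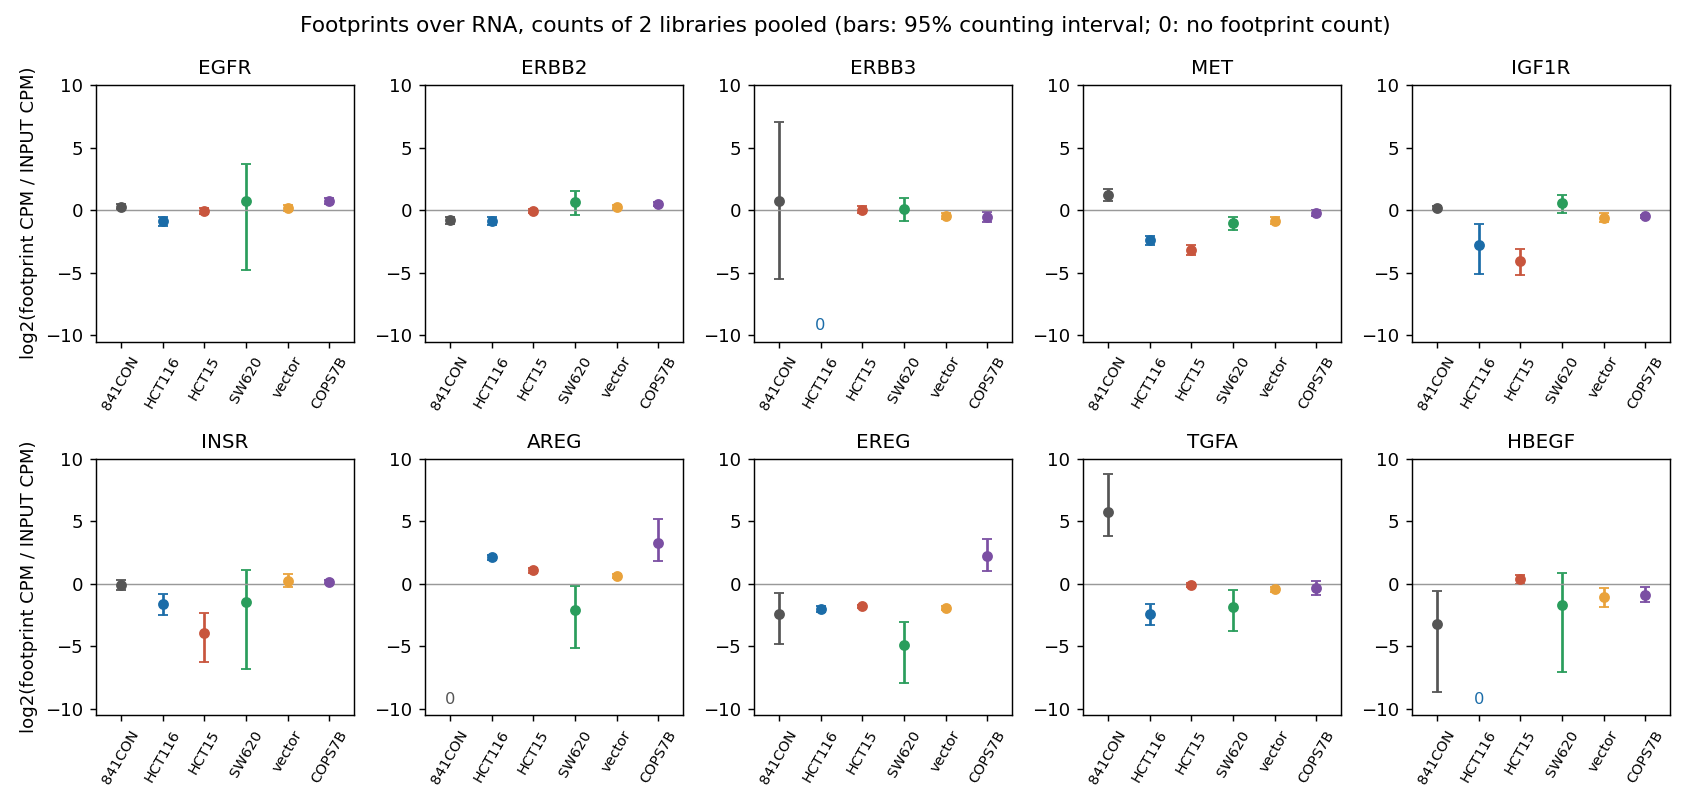
Ratio of footprint to INPUT level, in log2, from the pooled counts of the 2 libraries of each population, with bars for the 95% counting interval and a 0 where no footprint was counted. MET lies highest in 841CON, IGF1R and INSR have their lowest point in HCT15 with intervals that overlap those of HCT116, and wide bars mark groups with few counts.

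IGF1R, the receptor of the insulin-like growth factors, was lower in INPUT in all 3 cancer lines, and each change passed the test. Its INPUT level was 344 and 108 CPM in 841CON, 11.3 and 9.40 in HCT116, 25.6 and 29.8 in HCT15, and 78.9 and 57.8 in SW620, with each cancer library below both 841CON libraries. The log2 changes were -4.43 (SE 0.61, adjusted p = 1.861e-05), -3.02 (SE 0.55, adjusted p = 0.000323) and -1.72 (SE 0.53, adjusted p = 0.01228). The SW620 call was lost without 841CON INPUT replicate 1 (log2 -0.73, adjusted p = 0.2409) or SW620 INPUT replicate 2 (log2 -1.51, adjusted p = 0.1079). The cancer lines also differed among themselves (F test in edgeR, adjusted p = 0.003068).

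IGF1R footprints stood at 161 and 164 CPM in 841CON and 77.5 and 116 in SW620, but HCT116 had 0 and 3 counts and HCT15 6 and 3. The pooled footprint ratios to 841CON were 0.00909 (95% counting interval 0.00187 to 0.0267) in HCT116 and 0.0101 (0.00459 to 0.0193) in HCT15, with adjusted p-values of 1.496e-06 and 1.683e-06. The SW620 footprint change of -0.76 on the log2 scale did not pass (adjusted p = 0.3519). Footprints were lowered more than RNA in HCT15, with a TE change of -3.38 (SE 0.87, adjusted p = 0.01214), which was lost without HCT15 RPF replicate 2 (adjusted p = 0.1033). In HCT116 the TE change was -2.30 (SE 1.08, adjusted p = 0.08791), and it passed without 841CON INPUT replicate 1 (adjusted p = 0.007682) or HCT116 RPF replicate 2 (0.02661). IGF1R differed in TE among the cancer lines (F test in edgeR, adjusted p = 0.002971).

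INSR, the insulin receptor, was measured in INPUT at 64.1 and 16.1 CPM in 841CON, 24.7 and 20.3 in HCT116, 8.54 and 7.45 in HCT15, and 17.5 and 10.4 in SW620. The libraries of HCT15 were below both of 841CON, and the other lines overlapped them. The HCT15 change of -2.27 on the log2 scale (SE 0.76, adjusted p = 0.0256) was lost when 841CON INPUT replicate 1 (log2 -0.90, adjusted p = 0.3473), HCT15 INPUT replicate 1 (0.1209) or HCT15 INPUT replicate 2 (0.0815) was left out. Footprints numbered 62 and 26 counts in 841CON against 3 and 0 in HCT15, a pooled ratio of 0.0248 (95% counting interval 0.00502 to 0.0749, adjusted p = 0.0006629). The corresponding ratio was 0.335 (0.180 to 0.584) in HCT116, where the adjusted p was 0.1138 with edgeR and 0.0482 with DESeq2. The INSR footprint call in HCT15 was kept in all alternatives run.

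AREG, amphiregulin, was measured in INPUT at 5.66 and 0.175 CPM in 841CON (counts of 6 and 1), 101 and 76.7 in HCT116, 51.3 and 53.5 in HCT15, and 26.3 and 48.7 in SW620. Each cancer library was above both 841CON libraries, with log2 changes of 5.92 (SE 0.75), 5.16 (SE 0.74) and 4.70 (SE 0.75) and adjusted p-values of 1.023e-05, 4.91e-05 and 8.959e-05. No AREG footprint was counted in 841CON, against 365 and 385 CPM in HCT116 and 138 and 101 in HCT15. Taking 3 counts over the 2 libraries of 841CON as the most that a count of 0 allows, footprints were at least 502-fold higher in HCT116 and at least 148-fold higher in HCT15 (adjusted p = 7.412e-08 and 9.301e-07). SW620 had 1 and 1 counts, too few for a fold, although the fit called it higher (adjusted p = 0.02096). That call was lost without 841CON RPF replicate 1 (0.0715), SW620 RPF replicate 1 (0.09583) or SW620 RPF replicate 2 (0.09795).

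For AREG the pooled ratio of footprint to INPUT level was 4.32 (95% counting interval 3.78 to 4.95) in HCT116, 2.13 (1.86 to 2.44) in HCT15 and 0.235 (0.0281 to 0.872) in SW620. The intervals of the 3 lines did not overlap, and the difference among them in TE passed (F test in edgeR, adjusted p = 0.01586).

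EREG, epiregulin, had 27 and 0 INPUT counts in 841CON and stood at 361 and 364 CPM in HCT116, 492 and 789 in HCT15, and 69 and 411 in SW620. The cancer libraries were all above those of 841CON, which differed widely from each other (25.5 and 0 CPM). The log2 changes were 5.31 (SE 1.11, adjusted p = 0.0009408), 6.13 (SE 1.14, adjusted p = 4e-04) and 4.73 (SE 1.10, adjusted p = 0.001811). The last was lost without SW620 INPUT replicate 2 (log2 2.92, adjusted p = 0.05905).

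EREG footprints were at 3 and 0 counts in 841CON, 84.1 and 96.1 CPM in HCT116 and 157 and 172 in HCT15. They were 121 times (95% counting interval 40.6 to 590.4) and 225 times (76.8 to 1094) the 841CON level, with adjusted p-values of 0.000408 and 0.0002024. SW620 had 1 and 1 counts, and its change did not pass with edgeR (adjusted p = 0.3943) and did with DESeq2 (0.01115). The pooled ratio of footprint to INPUT level was 0.248 (0.212 to 0.290) in HCT116, 0.286 (0.266 to 0.307) in HCT15 and 0.260 (0.234 to 0.288) in the vector line, with overlapping intervals. In SW620, on 1 and 1 footprint counts, it was 0.0334 (0.00404 to 0.121), below these 3 intervals, which cover counting error only. The TE tests of EREG against 841CON gave no call (adjusted p = 0.5432, 0.6171 and 0.8507), nor did the F test among the cancer lines (0.4595).

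TGFA, transforming growth factor alpha, had another balance of RNA and footprints. INPUT held 1 and 1 counts in 841CON, against 36 and 40.6 CPM in HCT116, 109 and 104 in HCT15, and 63.5 and 71.4 in SW620. The pooled ratios to 841CON were 131 (95% counting interval 35.5 to 1091), 363 (100.1 to 3002) and 232 (63.2 to 1929.8), with adjusted p-values of 6.453e-06, 1.73e-06 and 1.533e-06. Footprints, in contrast, were present in 841CON, with 50 and 13 counts or 18.5 and 9.95 CPM. HCT116 had 10.9 and 3.88 CPM, SW620 17.2 and 21.1, and HCT15 144 and 83.4. Only HCT15 passed the footprint test (log2 2.95, SE 0.54, adjusted p = 0.0001997).

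In TGFA, the pooled ratio of footprint to INPUT level was 53.1 in 841CON (14.1 to 448), and 0.190 (0.104 to 0.325), 0.924 (0.825 to 1.04) and 0.277 (0.0746 to 0.723) in HCT116, HCT15 and SW620. TGFA was not tested for TE against 841CON, since its INPUT counts there were below the minimum, but it differed in TE among the cancer lines (F test in edgeR, adjusted p = 0.02649).

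HBEGF, heparin-binding EGF-like growth factor, had INPUT counts of 7 and 9 in 841CON, 4 and 1 in HCT116, 60 and 59 in HCT15, and 18 and 19 in SW620. Scaled to depth these were 6.60 and 1.58 CPM in 841CON, 2.67 and 0.495 in HCT116, 13.5 and 27.5 in HCT15 and 19.7 and 12.3 in SW620. HCT15 and SW620 lay above 841CON, but their log2 changes of 2.47 (adjusted p = 0.06112) and 2.12 (adjusted p = 0.09606) did not pass in edgeR, and both passed there without 841CON INPUT replicate 1 (adjusted p = 0.01548 and 0.02845). The HCT15 change also passed without HCT15 INPUT replicate 1 (0.0328), without TMM (0.02944) and with TMM over all 24 libraries (0.04688). Footprints were counted 38 and 90 times in HCT15 and 1 and 0 in 841CON, a pooled ratio of 93.1 (95% counting interval 16.4 to 3706, adjusted p = 0.0006782), and HCT116 had none. The cancer lines differed from each other in HBEGF INPUT (F test in edgeR, adjusted p = 0.02445).

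Ordered by mean INPUT level over the 6 populations, neighbours seldom differed beyond their spread. EGFR ran from the vector line (109 ± 5 CPM, SD, n = 2) through 841CON (104 ± 40), HCT116 (72.3 ± 6.94), HCT15 (71 ± 62.9) and COPS7B (32.4 ± 2.87) to SW620 (2.49 ± 1.98). The step from COPS7B to SW620 was the one that passed for EGFR (edgeR, adjusted p = 0.001801), a pair in which 30.4% of all genes passed. ERBB2 ran from the vector line (202 ± 48.2) to SW620 (41.4 ± 28.2) with no step between neighbours that passed. ERBB3 was highest in the vector line (106 ± 26.4) and lowest in 841CON (0.471 ± 0.667), next to COPS7B (16.1 ± 3.89), from which it differed (edgeR, adjusted p = 7.3e-05, beside 36.6% of all genes). MET was highest in SW620 (324 ± 8.94) and again lowest in 841CON (8.05 ± 4.72), which differed from COPS7B (45.6 ± 2.64, edgeR adjusted p = 0.001083). IGF1R was highest in 841CON (226 ± 167) and COPS7B (220.1 ± 8.62), a difference that did not pass (edgeR, adjusted p = 0.9792), followed by SW620 (68.3 ± 14.9, adjusted p = 0.01991 to COPS7B), and lowest in HCT116 (10.4 ± 1.37). INSR was highest in COPS7B (89.3 ± 3.88) and lowest in HCT15 (8 ± 0.775), with no step that passed.

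Among the ligands, AREG ran from the vector line (154 ± 23 CPM, SD, n = 2) over HCT116 (88.7 ± 17), HCT15 (52.4 ± 1.60) and SW620 (37.5 ± 15.8) to 841CON (2.92 ± 3.88) and COPS7B (0.674 ± 0.225). EREG kept the same division, with HCT15 (641 ± 209.9), the vector line (574 ± 259), HCT116 (363 ± 1.88) and SW620 (240.2 ± 242) above 841CON (12.7 ± 18) and COPS7B (1.09 ± 0.814). The step from SW620 to 841CON was the one that passed in both (edgeR, adjusted p = 8.959e-05 for AREG and 0.001811 for EREG). TGFA was highest in the vector line (162 ± 27.2), and the steps from HCT116 (38.3 ± 3.22) to COPS7B (8.42 ± 0.264, edgeR adjusted p = 0.006913, beside 23.9% of all genes) and from there to 841CON (0.559 ± 0.543, adjusted p = 0.0005139) passed. HBEGF ran from HCT15 (20.5 ± 9.88) to HCT116 (1.58 ± 1.54) with no step that passed.

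Across the 12 INPUT libraries, the log2 levels of AREG and EREG correlated at Pearson r = 0.970. Among 11937 other genes, EREG had rank 13 in likeness to AREG, and AREG had rank 10 in likeness to EREG. ERBB3 and TGFA correlated at r = 0.955, TGFA having rank 8 for ERBB3 and ERBB3 rank 7 for TGFA. Without the COPS7B libraries the values were 0.946 and 0.978. The member nearest to IGF1R was INSR, at r = 0.662 and rank 762, so many other genes followed it more closely. The genes most like AREG (ENSG00000141934, r = 0.992) and most like EREG (ENSG00000189334, r = 0.982) are given by identifier. The libraries of a population share its level, so these values describe 6 populations rather than 12 independent points.

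The vector line against parental HCT15 asks how far the control of the COPS7B experiment differed from its parent. Count tables of the vector and COPS7B lines also carry summary lines beside the genes, with 53.6% to 90.8% of reads. Those of parental HCT15 and the other lines carry none. A difference in how the tables were made therefore cannot be told apart from a difference between vector line and parent. In INPUT RNA 0 members passed with edgeR, beside 0.670% of all genes, and DESeq2 called 0 members too. At an unadjusted p under 0.05, 3 members and 1392 genes passed with edgeR. The log2 changes ranged from -0.39 for HBEGF to 1.55 for AREG (SE 0.51, adjusted p = 0.2003). In footprints MET, IGF1R and INSR, 3 of 10, passed with edgeR and were higher, beside 10.5% of all genes. DESeq2 called 7 members, these 3 and EGFR, ERBB2, ERBB3 and AREG, beside 2452 of the 11938 tested genes (1250 with edgeR).

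MET footprints stood at 52.5 and 76.8 CPM in the vector line and 21 and 6.11 in parental HCT15, a log2 change of 2.36 (SE 0.49, adjusted p = 0.005411). IGF1R stood at 35 and 38.4 CPM against 4.20 and 0.733 (log2 4.26, SE 0.71, adjusted p = 0.001002), and INSR at 34.4 and 16.1 against 2.10 and 0 (log2 5.17, SE 1.03, adjusted p = 0.003781). The vector libraries were above the parental ones for these 3 receptors, which had 6 and 3 IGF1R and 3 and 0 INSR footprint counts in the parental line. Without HCT15 RPF replicate 2 the calls of MET (log2 1.62, adjusted p = 0.09788) and INSR (log2 3.56, adjusted p = 0.07617) were lost, and that of IGF1R was kept. Both were also lost with only the compared libraries in the fit (adjusted p = 0.05559 and 0.0849), and that of MET with the close pairs of libraries summed (0.05291). ERBB2 footprints stood at 266 and 236 CPM in the vector line and 76.2 and 99 in the parental line, without overlap. The ERBB2 change (log2 1.51, SE 0.50, adjusted p = 0.05697) did not pass in edgeR. It passed there with the replicate block (0.03869), without TMM (0.03662) and with only the compared libraries (0.03537), and with DESeq2 (3.331e-09). The ligands had log2 footprint changes of 0.92 for AREG (adjusted p = 0.2416), 0.0038 for EREG, 0.012 for TGFA and -1.72 for HBEGF (adjusted p = 0.2465). None of the 4 passed with edgeR, and AREG passed with DESeq2 (log2 1.05, adjusted p = 0.007815).

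The TE changes of the same 3 receptors were 1.83 for MET, 3.39 for IGF1R and 3.88 for INSR on the log2 scale, and 0 members passed with edgeR (adjusted p = 0.2774, 0.1086 and 0.2196), beside 0.175% of all genes. At an unadjusted p under 0.05, 3 members and 1120 genes passed with edgeR. DESeq2 called IGF1R (log2 3.46, adjusted p = 0.01364), beside 210 of all genes tested for TE (17 with edgeR). All 3 receptors passed in edgeR without HCT15 RPF replicate 1 (adjusted p = 0.01181 for MET, 0.01062 for IGF1R and 0.0154 for INSR).

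The COPS7B libraries against the vector line address COPS7B overexpression. In INPUT RNA 9 of the 10 genes passed, beside 17.5% of all genes. IGF1R and INSR were higher, and EGFR, ERBB2, ERBB3, MET, AREG, EREG and TGFA were lower. The median log2 change of the 10 genes was -1.64, against 0.082 over all genes. In footprints IGF1R was higher and ERBB2, ERBB3, AREG, EREG and TGFA were lower, 6 of 10 beside 17.3%. For TE 0 of 8 tested members passed with edgeR (beside 0% of all genes), 0 members and 132 genes reached an unadjusted p under 0.05, and DESeq2 called 0 genes. The COPS7B libraries correlated less with parental HCT15 than the vector line did, as given above, and the part of this in the changes was not tested.

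**Figure D4:**
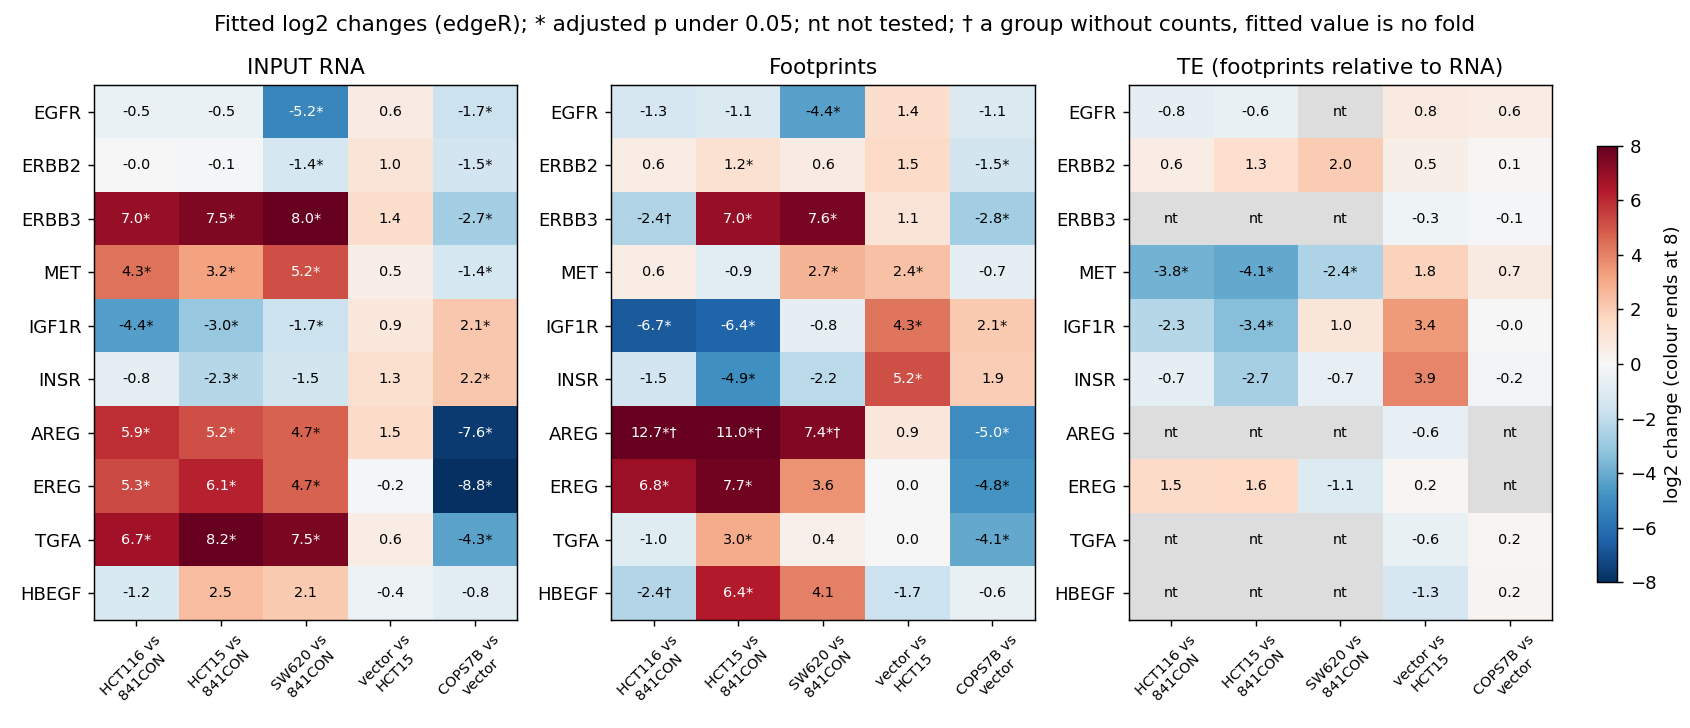
Fitted log2 change of each gene in 5 comparisons for INPUT RNA, footprints and TE, with an asterisk where the adjusted p was under 0.05, nt where a gene was not tested, and a dagger where a group held no counts. For COPS7B against the vector line, AREG and EREG have the most negative values (-7.64 and -8.81 in INPUT), and the TE panel shows no asterisk there.

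The most negative INPUT changes were those of AREG, EREG and TGFA. AREG stood at 0.514 and 0.833 CPM of INPUT (counts of 1 and 3), against 137 and 169.8 in the vector line, a log2 change of -7.64 (SE 0.77, adjusted p = 2.033e-06). EREG stood at 0.514 and 1.67 CPM (counts of 1 and 6) against 757 and 390.4, a change of -8.81 (SE 1.33, adjusted p = 9.989e-05). TGFA stood at 8.23 and 8.60 against 181 and 143, a change of -4.25 (SE 0.57, adjusted p = 3.204e-05). The COPS7B and vector libraries did not overlap for these 3 ligands, and the 3 INPUT calls were kept in all alternatives run. HBEGF, the other ligand, had a log2 change of -0.82, which did not pass (adjusted p = 0.6741).

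AREG and EREG had footprints left in the COPS7B libraries, with counts of 38 and 30 for AREG and 36 and 21 for EREG. Their log2 footprint changes were -5.02 (SE 0.60, adjusted p = 1.444e-05) and -4.81 (SE 1.04, adjusted p = 0.003453), and that of TGFA was -4.07 (SE 0.56, adjusted p = 4.938e-05). The pooled ratio of footprint to INPUT level was 9.57 (95% counting interval 3.57 to 36.1) for AREG and 4.59 (2.09 to 11.9) for EREG, against 1.54 (1.36 to 1.73) and 0.260 (0.234 to 0.288) in the vector line. Neither was tested for TE, with INPUT counts below the minimum. The EREG footprint call was lost without COPS7B RPF replicate 2 (adjusted p = 0.06888).

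Of the receptors, IGF1R rose from 64.9 and 34.5 CPM of INPUT in the vector line to 214 and 226, a log2 change of 2.13 (SE 0.53, adjusted p = 0.00784). INSR rose from 28.3 and 9.99 to 92.1 and 86.6 (log2 2.18, SE 0.74, adjusted p = 0.04707). IGF1R footprints went from 35 and 38.4 CPM to 152 and 159.7 (log2 2.09, SE 0.54, adjusted p = 0.01126). The COPS7B libraries were above those of the vector line in each of these. INSR footprints stood at 34.4 and 16.1 CPM in the vector line and 98.9 and 96.7 in the COPS7B line, where the test did not pass in edgeR (log2 1.94, adjusted p = 0.07644). It passed there without TMM (0.03965) and with only the compared libraries (0.002983), and with DESeq2 (0.0212).

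The ERBB receptors and MET lay lower without overlap in INPUT. ERBB3 fell from 124 and 87.2 CPM to 13.4 and 18.9 (log2 -2.70, SE 0.58, adjusted p = 0.002827), and EGFR, ERBB2 and MET had log2 changes of -1.75, -1.54 and -1.41 (adjusted p = 0.0348, 0.03764 and 0.03426). With DESeq2 the INPUT calls of EGFR and ERBB2 were lost (adjusted p = 0.06315 and 0.1009). In edgeR without TMM, those of EGFR and MET were lost (adjusted p = 0.05116 and 0.07304). The INPUT calls of EGFR, ERBB2, MET and INSR were each lost when any 1 of the 4 libraries was left out (adjusted p from 0.06348 to 0.3374), that of IGF1R without vector INPUT replicate 2 (0.1107) and that of ERBB3 without COPS7B INPUT replicate 1 (0.05121). The footprint calls of ERBB2 and IGF1R were likewise lost without any 1 library (adjusted p from 0.05417 to 0.2392), and that of ERBB3 (log2 -2.77, adjusted p = 0.002838) without COPS7B RPF replicate 1 (0.05999).

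Against parental HCT15, the COPS7B INPUT libraries were lower in AREG, EREG and TGFA and higher in IGF1R and INSR, 5 of 10 members beside 26.5% of all genes. The log2 levels of parental HCT15 minus COPS7B were 6.09, 8.96, 3.65, -2.99 and -3.47, with edgeR adjusted p-values of 1.81e-05, 7.501e-05, 9.674e-05, 0.00053 and 0.002806. The ERBB receptors and MET did not pass there (adjusted p from 0.09391 to 0.4919). The comparisons with the vector line and with the parental line use the same COPS7B libraries, and the latter also sets tables with summary lines against tables without them.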

How the data were processed

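The deposited tables hold raw counts per Ensembl gene for each library. Cutadapt 3.5, STAR 2.7.9, HTSeq 2.0.2 and the build GRCh38 are named in the submitters' processing notes. Annotation release, strand setting and treatment of reads with several matches: not given in the sources used here. Overlapping and antisense genes therefore cannot be told apart from the genes named.

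From these counts, the 11938 genes kept by edgeR's filter (minimum count 10) in both INPUT and RPF were scaled by TMM within each assay. All 12 groups of 2 libraries were fitted in 1 model with edgeR 4.0.16 in R 4.3.3 (quasi-likelihood test, 12 residual degrees of freedom). TE was the interaction of assay and line. Tests were two-sided, with Benjamini-Hochberg adjustment over all genes tested. CPM is the count per 1000000 counts of the TMM-scaled library size, taken over the 20426 genes listed in all tables. These genes hold 53.8% to 88.9% of the INPUT counts of a library (58.8% and 53.8% in SW620) and all counts of the RPF libraries. The remaining INPUT counts were left out of CPM and of all tests. SE is the absolute log2 change divided by the square root of F and is approximate. Pooled ratios carry exact Clopper-Pearson 95% intervals; these and the floor of 3 counts cover counting error only. Fitted changes of genes with no counts in a group are no folds.

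The fit was run on simulated data with 1 dispersion for all genes and changes in HCT116 RPF only. The real library pairs differ in spread, so that run gives no error rate for these data. Alternatives were DESeq2 1.42.0, other scalings and filters, a replicate block, and leaving out libraries. The genes and lists were chosen with earlier results of these data known. The text names the 10 members and, of the genes most like them, those of AREG and EREG. The lists of pathway genes and cell type markers, and COPS7B, were fixed by symbol and were not analysed here, because 0 rows of the RefSeq table carry an Ensembl identifier. Of the 10 members, 9 matched a RefSeq promoter window.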

Additional observations from a re-analysis of the deposited data

Results flagged for a closer look

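The difference among HCT116, HCT15 and SW620, a contrast that 841CON does not enter, passed edgeR's F test for 4 members in INPUT RNA and 4 in TE. In INPUT the adjusted p-values were 0.000199 for EGFR, 0.005639 for MET, 0.003068 for IGF1R and 0.02445 for HBEGF. EGFR was lowest in SW620, MET was highest there, IGF1R was lowest in HCT116, and HBEGF was lowest in HCT116. In TE the adjusted p-values were 0.0004784 for ERBB3, 0.002971 for IGF1R, 0.01586 for AREG and 0.02649 for TGFA. The pooled ratio of footprint to INPUT level was lowest in HCT116 for ERBB3 and TGFA, in HCT15 for IGF1R and in SW620 for AREG. For TGFA the counting intervals of HCT116 and SW620 overlapped, and for IGF1R those of HCT15 and HCT116, so the lowest line is not resolved there. These tests set the cancer lines against each other and passed for 46.0% of all genes in INPUT and 52.7% in TE. Fewer members passed in both when the pairs of closest counts, among them both HCT116 pairs, were summed, as given below. The F test results named for single genes above share this limit.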

How the results depend on the processing

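Of 58 member results that passed a test between 2 populations (the F tests among the cancer lines are not in this count), 36 passed in every alternative run and 22 were lost in at least 1; in 0 did the direction of a passed result turn. The ERBB2 INPUT difference to 841CON, which had not passed, turned to 1.26 (log2) in HCT116 and 1.26 in HCT15 without 841CON INPUT replicate 1, the highest values when 1 library was left out (lowest -0.71 and -0.79). For DESeq2, the scalings, the compared libraries and the summed pairs, counts of members called are given where they moved at least 1.5-fold. Smaller moves are not listed, such as the loss, in COPS7B INPUT, of EGFR and ERBB2 with DESeq2 and of EGFR and MET without TMM. Except where given, the cause of a move was not tested. With DESeq2, the counts were 5 for footprints of HCT116, 7 for footprints and 1 for TE of the vector line, and 2 for TE of SW620. Over all genes DESeq2 called 7551, 2452, 210 and 1770 in these, where edgeR called 7078, 1250, 17 and 1518. Without TMM, TE of SW620 gave 0. With only the compared libraries in the fit and in the filter on low counts, INPUT of SW620 gave 4 (ERBB3, AREG and EREG were not tested and ERBB2 was lost), footprints of SW620 2 (ERBB3 and AREG were not tested), TE of HCT15 0 and TE of SW620 0. With the 4 library pairs of closest counts (chi-square per gene 1.40 to 1.70, against 4.12 to 63.9 in the other 8) summed into 1 library each, COPS7B against the vector line gave 5 in INPUT and 2 in footprints, TE gave 1 in HCT15 and 0 in SW620, and the difference among cancer lines gave 1 in INPUT and 2 in TE. Leaving out 1 library gave, in INPUT, 6 to 7 members for HCT116, 7 to 8 for HCT15, 5 to 9 for SW620, 0 for the vector line, 4 to 5 for COPS7B and 3 to 5 among the cancer lines. In footprints it gave 3 for HCT116, 7 to 8 for HCT15, 2 to 4 for SW620, 1 to 3 for the vector line and 3 to 4 for COPS7B. In TE it gave 0 to 2 for HCT116, 1 to 3 for HCT15, 0 to 2 for SW620, 0 to 3 for the vector line, 0 for COPS7B and 3 to 5 among the cancer lines; a lone library was taken to have the spread of the other groups. Without the 4 COPS7B libraries, an alternative chosen after seeing the data, footprints gave 4, 7 and 4 members in the cancer lines and 3 in the vector line, and TE gave 1, 2, 1 and 0.

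Deviations of INPUT and RPF libraries with the same replicate number correlated at -0.117 to 0.223. The vector line, at 0.223, was the 1 of 6 lines over 0.1. Where a pair differs by little more than counting error, a correlation near 0 is found with or without pairing. That holds for at least 1 assay of HCT116, COPS7B and the normal colon line. Whether the numbers pair the libraries is therefore not decided by this check. The replicate block gave 6 members among the cancer lines in INPUT (4 without it), 4 for HCT116 footprints and 4 for vector footprints (3 in each without it), and the same number of members in the other comparisons. Over all genes, the block took TE calls from 1483 to 954 in HCT15, from 1518 to 1007 in SW620 and from 17 to 0 in the vector line. DESeq2 took vector calls from 80 to 193 in INPUT, from 1250 to 2452 in footprints and from 17 to 210 in TE. Close pairs summed took INPUT calls in HCT116 from 4782 to 2236 and footprint calls for COPS7B from 2071 to 335, and the compared libraries alone took INPUT calls in HCT15 from 4226 to 1760. The scaling without TMM shifted the median log2 change of all genes by 0.27 in HCT15 INPUT and by 0.31 in SW620 TE, and took the share of TE calls in SW620 that were higher from 46.4% to 63.1% (68.1% with DESeq2). Depth limits the SW620 footprints most, where 1 count is worth 8.61 or 10.6 CPM.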
